A study of Mus musculus with 3 samples.

Results

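The genes described here are 32 chaperones, folding enzymes, stress-response factors and degradation factors that cells use to keep proteins folded, chosen by symbol from a fixed list and all found among the 33696 genes of the series. They fall into 14 chaperones and folding enzymes of the endoplasmic reticulum (ER), 4 factors of the unfolded protein response, 4 genes of ER-associated degradation and 10 cytosolic heat shock proteins and co-chaperones. They were measured by droplet single-cell RNA sequencing of mouse bone marrow in 3 libraries, from wild-type, heterozygous Fabp4 knockout and homozygous Fabp4 knockout mice. Fabp4 is a lipid chaperone best known from fat cells and macrophages, and the series title sets leukaemia stem cells against normal blood stem cells. Cells of 2 mice were pooled in each library, no file assigns a cell to a mouse, and the labels used here give no strain, age, treatment or leukaemia status. With 1 library for each genotype, a difference between genotypes has no replicate check, so it compares these libraries and carries no p-value.

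Proteins that enter the secretory pathway or are stored in granules are threaded into the ER, where chaperones of the Hsp70 family (Hspa5, also called BiP) and Hsp90 family (Hsp90b1), the lectins calreticulin (Calr) and calnexin (Canx), and protein disulfide isomerases fold them. When unfolded protein accumulates there, membrane sensors start the unfolded protein response, in which factors such as Xbp1 and Atf4 raise the transcription of chaperones and of the degradation machinery that returns misfolded protein to the cytosol. The cytosolic heat shock proteins form a separate system under heat shock factors. Myeloperoxidase (Mpo), an abundant protein of neutrophil primary granules, matures in the ER with calreticulin and calnexin as known partners, and its RNA is made mainly in promyelocytes and in granulocyte-monocyte progenitors.

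Barcodes were kept as cells when they had 500 or more UMIs (unique molecules), 200 or more detected genes and less than 10% mitochondrial UMIs. These were 5604 of 9432 barcodes in the wild-type library, 7957 of 10718 in the heterozygous library and 4318 of 8115 in the homozygous library. They held between 46093025 and 72880881 UMIs per library, with median UMIs per cell of 10058, 7658 and 9036.5 in that order. Fabp4 had 50, 38 and 5 UMIs in the kept cells, lowest in the homozygous library, and where the deletion lies relative to the 3' reads is not given in the sources used here. Libraries shared 6 to 15 barcodes among kept cells. The libraries also differed in make-up: the immature neutrophil markers summed to 6639 counts per 1000000 UMIs (CPM) in wild-type cells, 23433 in heterozygous and 6800 in homozygous cells. Plasma cell markers summed to 465, 148 and 323 CPM, G2 and M phase genes to 966, 928 and 1750 CPM, and immediate early genes, which tissue handling can raise, to 7009, 13242 and 8670 CPM. The part of these differences in the genotype values below was not tested. Values within a cell class are given beside them, but differences in division and handling genes were also present within classes.

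The promoters of several ER members carry the ER stress response element (CCAAT, then 9 bases of any kind, then CCACG), to which the unfolded protein response factors Atf6 and Xbp1 are known to bind with NF-Y. It was searched on both strands in RefSeq promoters of build GRCm38.p6, each of 300 bases from 250 before to 50 after the start site, of which 27 of the 32 members had one. The element was present in 8 of those 27 members, against 0.119% of all 32851 promoters. The members were listed for their known roles in protein folding and its stress responses. The comparison with all promoters is therefore a description and no test. The carriers were Hspa5, Hsp90b1, Calr, Canx, Pdia6, Dnajc3 and Creld2 among the ER chaperones and Syvn1 among the degradation genes. A shorter relative (ATTGG, 1 base of any kind, then CCACG) lay in the promoters of Herpud1 and Dnajb11 and in 0.0365% of all promoters. The sites upstream of the start are shown for the members that rose with Mpo below. They read 5′ to 3′ on the strand of the gene, with the fixed bases of each element in capitals. For Hspa5 only the element itself is shown, because another annotation starts the gene further upstream.
Hspa5, chr2:34772025-34772043, plus strand: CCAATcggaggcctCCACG
Calr, chr8:84847055-84847113, minus strand: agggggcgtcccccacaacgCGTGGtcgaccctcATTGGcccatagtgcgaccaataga
Hsp90b1, distal, chr10:86705618-86705676, minus strand: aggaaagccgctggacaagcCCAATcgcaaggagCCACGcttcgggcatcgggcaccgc
Hsp90b1, proximal, chr10:86705513-86705571, minus strand: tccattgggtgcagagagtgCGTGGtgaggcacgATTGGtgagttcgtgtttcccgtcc
Canx, chr11:50325780-50325838, minus strand: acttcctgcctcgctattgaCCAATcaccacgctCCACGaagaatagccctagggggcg
Pdia6, chr12:17266471-17266529, plus strand: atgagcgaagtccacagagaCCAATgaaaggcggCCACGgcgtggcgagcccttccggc
Dnajc3, chr14:118937807-118937865, plus strand: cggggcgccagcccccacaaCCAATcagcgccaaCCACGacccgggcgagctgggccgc
Creld2, chr15:88819500-88819558, plus strand: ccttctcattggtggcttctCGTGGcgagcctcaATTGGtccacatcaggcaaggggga
Herpud1, chr8:94386357-94386407, plus strand: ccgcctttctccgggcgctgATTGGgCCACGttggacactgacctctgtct

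In Calr, Creld2 and the proximal site of Hsp90b1 the element runs in reverse, so the capitals read CGTGG and then ATTGG. The first base of the element lies 65 bases before the RefSeq start in Hspa5, 162 in Calr, 212 and 107 in Hsp90b1, 145 in Canx, 98 in Pdia6, 105 in Dnajc3 and 126 in Creld2. The heat shock element (GAA, TTC and GAA, each parted by 2 bases of any kind, on either strand) lay in the promoters of Hsph1 and Chordc1, both cytosolic members, and in 0.603% of all promoters. The pattern TGATGCAA, the core of the amino acid response element bound by Atf4, lay in Herpud1 and in 0.895% of all promoters. A match of letters is a description of the sequence and not a measured binding site.

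All 32 members were detected in all 3 libraries. A level in CPM is the UMIs of a gene in every 1000000 UMIs of the cells summed. Trib3, a pseudokinase induced by Atf4, was at about the level of 1 CPM (1.04 wild-type, 0.741 heterozygous and 1.30 homozygous), so its ratios are poorly resolved. The ER chaperones summed to 3258 CPM in wild-type cells, 2290 in heterozygous and 2947 in homozygous cells. The cytosolic heat shock genes summed to 2822, 2057 and 3137 CPM. The 4 unfolded protein response factors summed to 459, 432 and 442 CPM and the 4 degradation genes to 299, 271 and 302 CPM, so both of these sums were closer between libraries than the chaperone sums.

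**Figure D1:**
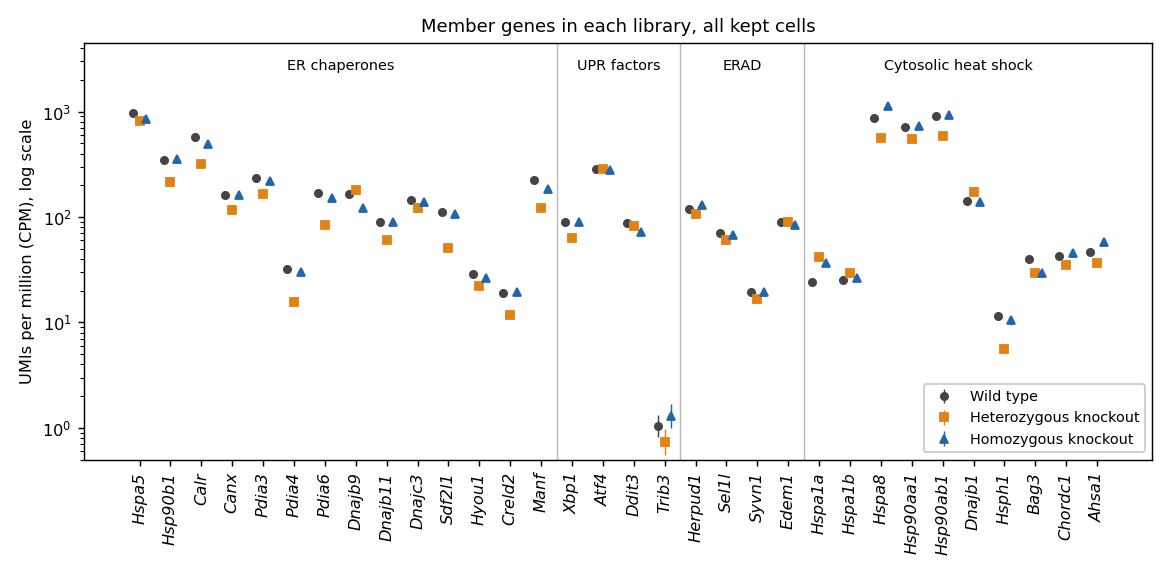
Level of each of the 32 members (horizontal axis, grouped by role, ERAD being ER-associated degradation) in CPM on a log axis, for each library over all kept cells. Bars are 95% Poisson counting intervals. Most ER chaperones are lowest in the heterozygous library, as Sdf2l1 at 50.5 CPM against 111 and 107, while Hspa1a is lowest in the wild-type library.

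In the homozygous library the ER chaperone sum was lower than in the wild-type library and the cytosolic sum higher. The log2 ratio of homozygous to wild type was -0.14 for the ER sum, with a 95% counting interval of -0.15 to -0.13. It was 0.15 for the cytosolic sum, with an interval of 0.14 to 0.16. Intervals cover counting error only, and no spread between animals is known. Of the 14 ER chaperones, 11 were below and 3 above the wild-type level. The share of all genes below that level was not counted, so this is a description of direction only. With each cell given equal weight in place of equal weight per UMI, the ER ratio shrank to -0.04. Without Hspa8, the constitutive cytosolic Hsp70, the cytosolic ratio shrank to 0.04.

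Hspa8 itself measured 860 CPM in wild-type cells, 567 in heterozygous and 1123 in homozygous cells, so the 3 libraries were well separated. Its homozygous to wild-type log2 ratio was 0.39, with an interval of 0.37 to 0.40, and it was positive in all 5 cell classes examined, from 0.20 in granulocyte-monocyte progenitor-like to 0.48 in dendritic cell-like cells. In mature neutrophil-like cells the interval, -0.03 to 0.48, included 0. Ahsa1, which stimulates the ATPase of Hsp90, had a ratio of 0.30. Dnajb9, an ER co-chaperone that restrains the sensor Ire1, went the other way: it measured 164 CPM in wild-type cells, 178 in heterozygous and 122 in homozygous cells, a homozygous ratio of -0.43. Dnajb9 was lower in the homozygous than in the wild-type library in all 5 classes. Bag3, a co-chaperone that directs Hsp70 clients to autophagy, had 39.6 CPM in the wild-type library and 29.5 and 29.2 in heterozygous and homozygous libraries.

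A member was counted as past the fold when its CPM differed by at least 1.5-fold between 2 libraries and it had at least 50 UMIs in the pair. In the homozygous library 1 of 32 members was higher by that rule and 0 were lower, while 9.56% of all 14903 genes with enough UMIs were higher and 7.36% were lower. The member was Hspa1a, an inducible cytosolic Hsp70, with 24.1 CPM in wild-type cells, 41.3 in heterozygous and 36.7 in homozygous cells. It was low in the wild-type library and high in both knockouts, with log2 ratios of 0.60 in the homozygous and 0.78 in the heterozygous library. Hspa1a and Hspa1b are near-identical copies, so the division of reads between them is uncertain. Hspa1b measured 25.1, 29.3 and 26.6 CPM. Within granulocyte-monocyte progenitor-like cells Hspa1a was at 18.1, 31.4 and 19.0 CPM, so the homozygous and wild-type values there were indistinguishable by counting error, with a log2 ratio of 0.07 and an interval of -0.17 to 0.31.

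In the heterozygous library 1 member was past the fold upward, again Hspa1a, and 10 of 32 were past it downward, against 10.3% of all 15270 genes upward and 15.5% downward. The median log2 ratio was -0.41 over the members and -0.14 over all genes. Both knockouts are compared with the same wild-type library. Genes of neutrophil granules took 30920 CPM of the wild-type and 87372 CPM of the heterozygous library, and with them left out of the total the heterozygous ER ratio was -0.42 in place of -0.51. The 10 comprised 7 of the 14 ER chaperones, none of the response factors or degradation genes, and 3 cytosolic genes.

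Sdf2l1, an ER chaperone partner of Hspa5, measured 111 CPM in wild-type cells, 50.5 in heterozygous and 107 in the homozygous library, a heterozygous log2 ratio of -1.14. Pdia4, a disulfide isomerase, measured 32.1, 15.5 and 29.8 CPM, a heterozygous ratio of -1.05. Pdia6, another disulfide isomerase, measured 168, 84.7 and 153 CPM, a heterozygous ratio of -0.99. In each of these the heterozygous library stood apart and the other two were close.

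Manf, a secreted ER protein that binds Hspa5, measured 223, 122 and 183 CPM, with a heterozygous ratio of -0.87. Calr measured 568, 321 and 493 CPM, with a ratio of -0.82. Hsp90b1 measured 351, 213 and 355 CPM, with a ratio of -0.72. Wild-type and homozygous values of Hsp90b1 were indistinguishable by counting error, since the interval of their log2 ratio, -0.01 to 0.05, included 0.

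Creld2, an ER folding factor with isomerase activity, measured 19.1, 11.7 and 19.3 CPM, a heterozygous ratio of -0.71. Among the cytosolic genes, Hsp90ab1, the constitutive Hsp90, measured 911, 586 and 936 CPM, a heterozygous ratio of -0.64. Hsph1, an Hsp110 nucleotide exchange factor, measured 11.6, 5.61 and 10.4 CPM, a ratio of -1.05. Hspa8, given above, had a heterozygous ratio of -0.60.

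Members were then compared between cell classes, which were gated on marker genes that are not members. Of 14 classes gated, the 5 that met minimum counts of cells and markers are compared here. The rest were not ranked. Among them were plasma cell-like cells (127 wild-type, 70 heterozygous and 68 homozygous) and stem and progenitor-like cells (366, 181 and 96). Gated cells numbered 1060 wild-type, 838 heterozygous and 765 homozygous for granulocyte-monocyte progenitor-like cells (Elane, Prtn3, Ctsg, Ms4a3, Prss57), 535, 2160 and 276 for immature neutrophil-like, 109, 1113 and 141 for mature neutrophil-like, 984, 827 and 1272 for monocyte-like and 106, 440 and 90 for dendritic cell-like cells. Ungated cells were 32.6%, 21.4% and 29.4% of the libraries. Each class is a range of a marker score, and 193 of the 2663 progenitor-like cells lay within 0.1 of its edge, as did 202 of 2971 immature neutrophil-like, 112 of 1363 mature neutrophil-like, 165 of 3083 monocyte-like and 13 of 636 dendritic cell-like cells.

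Among these 5 classes, the ER chaperones as a sum were highest in granulocyte-monocyte progenitor-like cells and lowest in mature neutrophil-like cells in every library. Their sum fell from 3800 to 1736 CPM in wild-type cells, from 2944 to 1644 in heterozygous and from 3555 to 1604 in homozygous cells between those classes. The cytosolic sum was also highest in the progenitor-like and lowest in the mature neutrophil-like cells, at 3440 and 1253 CPM in wild-type cells, 2673 and 1330 in heterozygous and 3744 and 1406 in homozygous cells. The sum of the response factors stayed between 352 and 503 CPM in these 5 classes in all libraries. Atf4 held most of it, with a mean over libraries of 264 of 424 CPM in progenitor-like cells. The level sum covered opposite moves. Mean Xbp1 was 88.3 CPM in progenitor-like and 53.4 in mature neutrophil-like cells, while mean Ddit3 was 71.0 and 113 CPM. Of the 14 ER chaperones, 10 had their highest class level in progenitor-like cells in all 3 libraries, as did Hsp90aa1, Hsp90ab1, Chordc1 and Ahsa1 among the cytosolic genes. The share of all genes highest in progenitor-like cells was not counted, so 10 of 14 is a description and no test. Hspa8 and Bag3 were highest in monocyte-like cells and Dnajb1, an Hsp40 co-chaperone, in mature neutrophil-like cells in all 3.

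**Figure D2:**
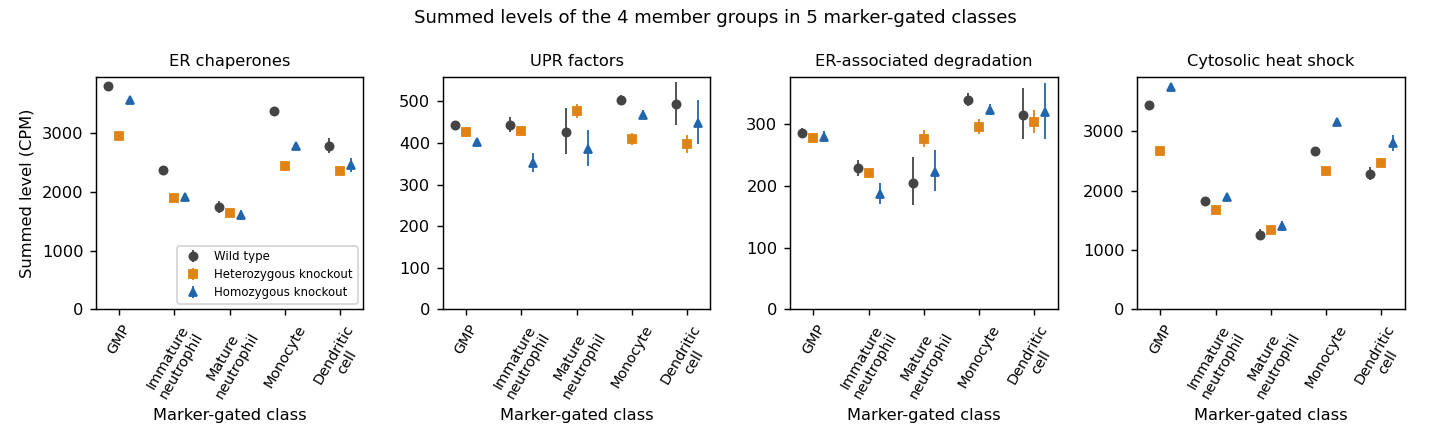
Summed level in CPM (vertical axes, each from 0) of the 4 member groups in 5 marker-gated classes (horizontal axis, GMP being granulocyte-monocyte progenitor-like), with a point for each library and 95% Poisson counting intervals. The ER chaperone and cytosolic sums are highest in progenitor-like and lowest in mature neutrophil-like cells in each library. The sum of the response factors lies between 352 and 503 CPM throughout, though Xbp1 and Ddit3 differ in opposite directions between those classes.

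These class differences were tested over the 3 libraries by edgeR's quasi-likelihood test on UMI sums, with the library as a block and Benjamini-Hochberg adjustment over all genes. The libraries differ in genotype, so the test asks whether a class difference is shared across them. Here and in the Mpo contrasts below, the test rescales the sums (TMM), so its changes are not the plain ratios of the CPM beside them. Against progenitor-like cells, mature neutrophil-like cells had 3 members higher and 20 lower, where 26.2% of all 12913 genes were higher and 36.7% lower. The median log2 fold change was -0.72 over the members and -0.27 over all genes. The 20 included 12 of the 14 ER chaperones, and also Xbp1, whose call was lost without the heterozygous library. Hsp90b1 measured 421, 320 and 445 CPM in progenitor-like cells of the wild-type, heterozygous and homozygous libraries and 92.9, 60.9 and 69.4 CPM in mature neutrophil-like cells, with no overlap. Its log2 fold change was -2.21 ± 0.14 (SE, adjusted p = 6.9e-13 by edgeR). Hspa5 did not pass, at -0.08 ± 0.12 (adjusted p = 0.59). The 3 that rose were Dnajb9, Ddit3 and Dnajb1, and the call for Dnajb1 was lost without the heterozygous library. Dnajb9 measured 125, 120 and 97.8 CPM in the progenitor-like and 191, 258 and 174 CPM in the mature neutrophil-like cells, a change of 1.08 ± 0.14 (SE, adjusted p = 3.1e-07). Ddit3, which encodes the stress factor CHOP, rose by 0.92 ± 0.15 (SE, adjusted p = 1.0e-05). Mature neutrophil-like cells averaged 5236 to 5827 UMIs per cell and progenitor-like cells 17074 to 18658, all 14 S phase and all 14 G2 and M phase genes were lower, and 13 of 15 immediate early genes were higher and 1 lower. The part of depth, division and handling in the members' values was not tested.

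Immature neutrophil-like cells against progenitor-like cells had 5 members higher and 20 lower, beside 28.0% and 29.6% of all genes. Of the response factors, Atf4 and Ddit3 were called higher and Xbp1 lower, and the call for Ddit3 was lost without the heterozygous library. In the same contrast 10 of 14 S phase genes were lower and 1 higher, 10 of 14 G2 and M phase genes were lower, and 9 of 15 immediate early genes were higher and 2 lower. Immature neutrophil-like cells averaged 9064 to 9361 UMIs per cell, fewer than the progenitor-like cells, and the part of these differences was not tested. Monocyte-like cells had 7 higher and 10 lower, beside 29.4% of all genes in each direction, so 7 of 32 is below that share and 10 of 32 is near it. The inducible Hsp70 genes were among the 7. Hspa1a measured 18.1, 31.4 and 19.0 CPM in progenitor-like and 55.6, 86.0 and 57.4 CPM in monocyte-like cells, a change of 1.63 ± 0.09 (SE, adjusted p = 3.5e-06 by edgeR). The immediate early genes moved with them: 12 of 15 were higher in monocyte-like cells and 1 was lower. Their part in the Hspa1a value was not tested. Hsp90aa1, the inducible Hsp90, fell by 0.79 on the log2 scale between the same classes, with 931, 739 and 1027 CPM in progenitor-like and 526, 430 and 522 CPM in monocyte-like cells.

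Within classes the homozygous library kept both directions seen over all cells. The ER sum was below wild type in 5 of 5 classes, with log2 ratios from -0.31 in immature neutrophil-like to -0.10 in progenitor-like cells, and the counting interval excluded 0 in 4 of them. The cytosolic sum was above wild type in 5 of 5 classes, from 0.04 in immature neutrophil-like to 0.30 in dendritic cell-like cells, and the interval excluded 0 in 4. Without Hspa8 the immature neutrophil-like value was -0.04 and the other classes ranged from 0.09 to 0.21. In the heterozygous library the ER sum was below wild type in 5 of 5 classes, with the interval excluding 0 in 4. Its ratio was -0.37 in progenitor-like cells, against -0.51 over all cells. Within progenitor-like cells 4 of the 31 members with enough UMIs were past the fold downward, Pdia4, Pdia6, Sdf2l1 and Hsph1, and 1 upward, Hspa1a, beside 7.5% and 5.87% of all 12048 genes. In the homozygous library none of 31 was past the fold in these cells in either direction, beside 5.85% higher and 6.85% lower of 12008 genes. The libraries differed in other genes within classes too, given here as wild-type, heterozygous and homozygous CPM. G2 and M phase genes summed to 1252, 1563 and 2015 in progenitor-like and 777, 742 and 1612 in monocyte-like cells. Immediate early genes summed to 5042, 9891 and 6002 in progenitor-like and 10245, 16249 and 10151 in monocyte-like cells. Their part in the values within classes was not tested.

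The other classes gave these counts by the same rule. In immature neutrophil-like cells of the homozygous library, Hspa1a was past the fold upward and Pdia4, Sdf2l1, Xbp1 and Bag3 downward, of 30 members, beside 5.31% and 8.09% of all genes. In those of the heterozygous library, Hspa1a was up and Hsp90b1, Pdia4, Pdia6 and Sdf2l1 were down, of 31, beside 5.53% and 9.45%. In monocyte-like cells of the homozygous library none was up and Dnajb9 and Bag3 were down, of 31, beside 11.2% and 6.81%. In those of the heterozygous library, Hspa1a was up and Pdia4, Pdia6, Creld2 and Manf were down, of 31, beside 6.56% and 5.83%. Pdia6 was thus past the fold in the heterozygous library in 4 classes, counting the progenitor-like and the mature neutrophil-like cells.

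Of the 5 classes, the 2 with fewest wild-type cells were less well resolved. In mature neutrophil-like cells of the homozygous library none of 20 members was past the fold either way, beside 5.26% and 11.3% of all genes. In those of the heterozygous library Herpud1, Edem1 and Hspa1b were up and Hsp90b1, Pdia6, Dnajb11, Sdf2l1, Xbp1 and Bag3 down, of 28, beside 10.8% and 15.6%. In dendritic cell-like cells of the homozygous library none of 22 was past the fold, beside 8.94% and 8.71%. In those of the heterozygous library Hspa1a, Hspa1b and Hsph1 were up and Xbp1 and Ddit3 down, of 30, beside 12.0% and 6.35%. Sdf2l1 was lower in the heterozygous than in the wild-type library in 5 of 5 classes, with log2 ratios from -1.42 to -0.39, and Hspa1a was higher in 5 of 5, from 0.33 to 1.36.

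**Figure D3:**
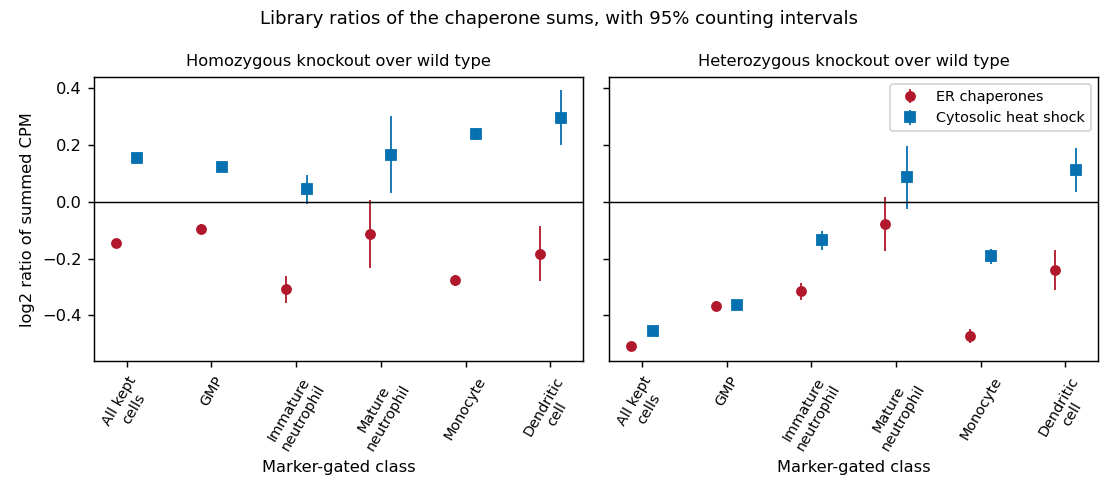
Log2 ratio of the summed CPM of ER chaperones (circles) and cytosolic heat shock genes (squares) of each knockout library to the wild-type library (vertical axis), over all kept cells and in 5 marker-gated classes (horizontal axis). Bars are 95% counting intervals. In the homozygous panel every ER point is below 0, from -0.31 to -0.10, and every cytosolic point above it, from 0.04 to 0.30.

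The members were next set against Mpo, which is not a member and was not used in the gates. Cells were placed in 5 bins of Mpo UMIs per 10000 UMIs of the cell. The ER chaperone sum climbed through the bins: in the wild-type library it was 2982, 3249, 4133, 4616 and 5621 CPM from under 1 to 50 or more Mpo UMIs per 10000. In the homozygous library it was 2689, 2994, 4188, 5378 and 6684 CPM. In the heterozygous library it was 2145, 2474, 3505 and 4080 CPM in the first 4 bins and 3840 in the last, which held 12 cells. The share of progenitor-like cells rose along the same bins, from 9.91% to 80.8% in the wild-type library, so the contrast was repeated within that class below. The response factor sum showed no such climb and stayed between 407 and 467 CPM in all bins and libraries. A level sum can cover moves of single factors, and Xbp1 is given by itself below. The degradation sum peaked in a middle bin of each library, and in the last bin it was at 270, 264 and 302 CPM against 292, 264 and 300 CPM in the first.

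**Figure D4:**
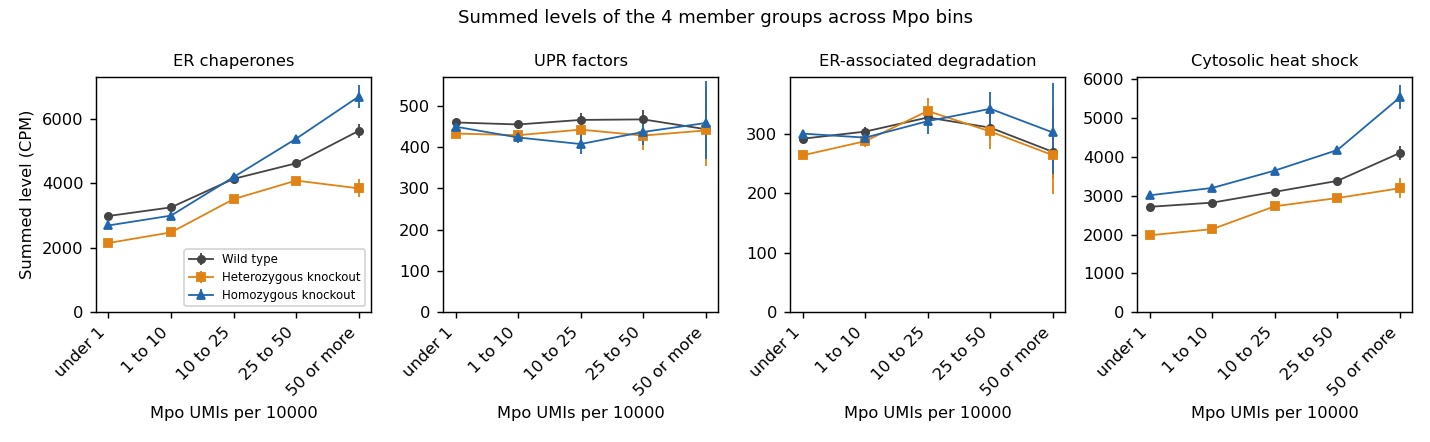
Summed level in CPM (vertical axes, each from 0) of the 4 member groups in cells binned by Mpo UMIs per 10000 UMIs (horizontal axis), with a line for each library and 95% Poisson counting intervals. The ER chaperone sum in the homozygous library climbs from 2689 to 6684 CPM, and the response factor sum stays between 407 and 467 CPM. The cytosolic sum also climbs in each library, but its members Hspa1a, Hspa1b and Bag3 had negative changes in the test.

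Over all classes, cells with at least 50 Mpo UMIs per 10000 were compared with cells under 10. The first group was small, with 26 wild-type, 12 heterozygous and 9 homozygous cells, against 5054, 7699 and 4013. In edgeR's quasi-likelihood test, 14 of 32 members were higher and 1 lower in Mpo-high cells, beside 6.16% and 12.2% of all 14061 genes. The median log2 fold change was 0.53 over the members and -0.25 over all genes. The 14 comprised 11 of the 14 ER chaperones and the cytosolic genes Hspa8, Hsp90aa1 and Hsp90ab1. The cytosolic genes Hspa1a, Hspa1b and Bag3 had changes of -0.94, -0.77 and -0.79 and did not pass. With cells of at least 10 Mpo UMIs per 10000 against cells under 1, these 3 were called lower. In that contrast 5 other cytosolic genes were higher, and 20.5% of all 14787 genes were higher and 23.1% lower. Other values moved with this contrast. Mpo-high cells averaged 17968 wild-type, 17037 heterozygous and 23523 homozygous UMIs per cell, against 11264, 8922 and 10342 in Mpo-low cells. Plasma cell markers summed to 15.0, 14.7 and 4.72 CPM against 543, 156 and 357 CPM, immature neutrophil markers to 550, 2993 and 860 against 7509, 24508 and 7414 CPM, and T and natural killer cell markers to 616, 558 and 609 against 90.1, 82.5 and 80.9 CPM. Of 15 immediate early genes 12 were lower and none higher, and of 14 S phase genes 8 were higher and none lower. Their part in the members' values was not tested. The call for Hspa8 was lost when any library was left out. The number higher was 8 without the wild-type library, 13 without the heterozygous and 8 without the homozygous library, and DESeq2 called 11 higher and 0 lower. All genes called higher numbered 298 of 14152, 641 of 14341 and 600 of 14895 in these leave-outs and 748 of 14061 by DESeq2.

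The 5 with the largest fold were Sdf2l1, Pdia6, Calr, Pdia4 and Manf, which were called in every leave-out. Sdf2l1 rose from 96.8 to 274 CPM in wild-type cells, from 46.0 to 181 in heterozygous and from 94.6 to 335 in the homozygous library, a log2 change of 1.72 ± 0.23 (SE, adjusted p = 6.0e-12 by edgeR). Calr rose from 510 to 1295, from 294 to 910 and from 435 to 1578 CPM, a change of 1.57 ± 0.20 (SE, adjusted p = 3.2e-13). Every Mpo-high value of both genes exceeded every Mpo-low value. The test draws its estimate of spread from all genes, so p-values this small do not measure the spread between 3 libraries alone. The changes of Pdia6, Pdia4 and Manf were 1.66, 1.57 and 1.42, and that of Hsp90b1 was 0.93. Canx, at 0.64, and Hspa5, at 0.55, passed with adjusted p of 0.029 and 0.028, but neither was called without the wild-type or without the homozygous library. Xbp1 did not pass, at 0.53 ± 0.25 (SE, adjusted p = 0.13). With the Mpo-high cut set at 25 per 10000 it was called higher. At 10 against under 1 per 10000 it was not called, except in some alternatives, such as with top Scrublet scores removed.

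Dnajb9 fell in Mpo-high cells. It measured 171, 182 and 124 CPM in the Mpo-low cells of the wild-type, heterozygous and homozygous libraries and 81.3, 34.2 and 104 CPM in the Mpo-high cells, a change of -1.12 ± 0.26 (SE, adjusted p = 0.00037 by edgeR). The heterozygous Mpo-high value rests on 7 UMIs. Without the heterozygous library the call was lost, and over its alternatives the adjusted p ranged from 3.47e-06 to 0.143.

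Within granulocyte-monocyte progenitor-like cells, too few cells reached 50 Mpo UMIs per 10000 in both knockout libraries, so cells with at least 25 were compared with cells under 10. These were 165 against 650 wild-type, 78 against 647 heterozygous and 76 against 577 homozygous cells. The ER chaperone sum was 4791 against 3338 CPM in wild-type cells, 4052 against 2669 in heterozygous and 5549 against 3015 in homozygous cells. The cytosolic sum was 3497 against 3501, 3056 against 2593 and 4430 against 3637 CPM, so it was almost level in the wild-type library. By edgeR 15 of 31 members tested were higher and 0 lower. Of all 11888 genes edgeR called 4.28% higher and 3.84% lower, and the median log2 change was 0.40 over the members and 0.01 over all genes. DESeq2 called 11 members higher and 0 lower, beside 209 and 251 of all genes. Without the homozygous library 5 members were called, beside 108 of 12321 genes higher. Without the library block 0 were called, beside 6 of all genes higher. At an unadjusted p under 0.05 by edgeR, 17 members were higher and 0 lower, and 16 were higher without the block. The share of all genes at that unadjusted level was not counted.

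The 15 comprised 13 of the 14 ER chaperones, all but Dnajb9, together with Herpud1, a degradation factor of the ER membrane, and Hsp90ab1. The 7 ER chaperones with an ER stress response element in the promoter were all among them, and so were Pdia3, Pdia4 and Sdf2l1, whose promoter windows held none. Manf and Hyou1 had no promoter to search. Because 13 of the 14 were called, these counts cannot tell carriers from the rest. Calr, Manf, Pdia4, Pdia6 and Sdf2l1 were called whichever library was left out.

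Pdia6 measured 178 CPM in the Mpo-low and 336 in the Mpo-high progenitor-like cells of the wild-type library, 122 and 225 in heterozygous and 158 and 383 in the homozygous library. Its log2 change was 1.06 ± 0.11 (SE, adjusted p = 0.00026 by edgeR). Calr measured 610 and 989, 434 and 894, and 553 and 1232 CPM, a change of 1.0 ± 0.11 (SE, adjusted p = 0.00035). Neither gene's Mpo-high values overlapped its Mpo-low values.

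Sdf2l1 changed by 1.04 ± 0.12, with 147 and 237, 81.6 and 162, and 116 and 293 CPM. Pdia4 changed by 1.01 ± 0.15, with 33.8 and 58.0, 24.4 and 39.9, and 29.2 and 75.7 CPM. Manf changed by 0.84 ± 0.11. Hspa5 measured 896 and 1312 CPM in wild-type cells, 822 and 1038 in heterozygous and 777 and 1362 in homozygous cells, a change of 0.60 ± 0.12 (SE, adjusted p = 0.011). In these 4 genes each library's Mpo-high value exceeded its own Mpo-low value.

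Hsp90b1 changed by 0.55 ± 0.11 (SE, adjusted p = 0.012 by edgeR), and in the wild-type library the step was small, from 400 to 461 CPM. Canx changed by 0.38 ± 0.10 (SE, adjusted p = 0.045), and its call was lost without the heterozygous or without the homozygous library. Xbp1 did not pass, at 0.37 ± 0.13 (SE, adjusted p = 0.11), with 81.6 and 101, 81.6 and 79.8, and 84.6 and 134 CPM. When the heterozygous library was left out, Xbp1 was called higher. Dnajb9 did not pass within the class, at -0.13 ± 0.10 (adjusted p = 0.49). Atf4 and Ddit3 were at 0.03 and 0.07, and Trib3 had too few UMIs to be tested. Among the cytosolic genes Hspa8 was at 0.07 and Hsp90aa1 at 0.07, neither of which passed.

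**Figure D5:**
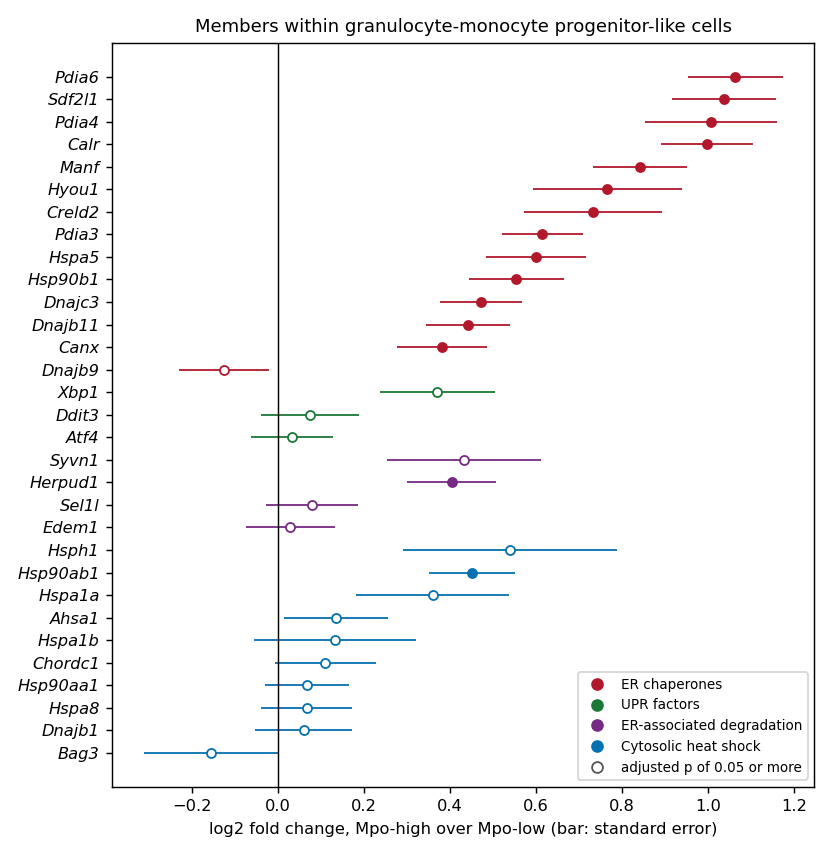
Log2 fold change of each tested member between Mpo-high and Mpo-low granulocyte-monocyte progenitor-like cells (horizontal axis, bars are standard errors) by edgeR over the 3 libraries, with members listed by group. Filled points passed an adjusted p of 0.05. The ER chaperones run from Canx at 0.38 to Pdia6 at 1.06 apart from Dnajb9 at -0.13. All tested response factors and most cytosolic genes are open points.

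Other lists of the pathway were counted in the same test within progenitor-like cells. Of 22 genes for translocation into the ER, 15 were higher and none lower, with a median change of 0.49. Their 2 genes of highest CPM, Sec61b and Sec61g of the translocation channel, changed by 0.67 ± 0.10 and 0.62 ± 0.10 (SE, adjusted p = 0.0022 and 0.0033 by edgeR). Of 14 stress sensors and membrane-bound factors, 2 were higher and none lower, one of them Ern1, which encodes Ire1, at 0.34 ± 0.10 (adjusted p = 0.049). Of 18 tested targets of the integrated stress response 2 were higher, of 11 oxidative folding enzymes 1, the disulfide isomerase P4hb, at 0.54, of 11 other degradation genes 2, of 23 other cytosolic chaperones 2, and of 8 mitochondrial chaperones and proteases 3. None of these was lower.

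Mpo-high progenitor-like cells differed in other ways too. Their immature neutrophil markers summed to 1166, 4405 and 832 CPM, against 6566, 16562 and 8190 CPM in the Mpo-low cells of the wild-type, heterozygous and homozygous libraries. The T and natural killer cell markers summed to 469, 456 and 425 CPM in Mpo-high against 250, 252 and 152 CPM in Mpo-low cells. The monocyte markers were at 1286, 2084 and 2271 against 1303, 1141 and 1094 CPM, so they were higher in both knockout libraries and level in the wild-type library. The stem and progenitor markers were at 146, 213 and 154 against 122, 87.6 and 75.6 CPM. The progenitor markers used in the gate were at 19263, 16173 and 20262 against 8011, 7266 and 9933 CPM. No S phase gene of 14 was called, and of 14 G2 and M phase genes 0 were higher and 5 lower. Mpo-high cells averaged 20154, 17682 and 23648 UMIs per cell against 17543, 16734 and 15837. Plasma cell markers were at 24.7, 10.9 and 9.46 CPM in Mpo-high and 25.5, 9.98 and 9.85 CPM in Mpo-low cells. The part of all these values in the rise was not tested.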

How the data were processed

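The authors deposited raw UMI counts, as whole numbers for every gene in every barcode, made with Cell Ranger 8.0.1 per the file headers. The aligner STAR and mouse build mm10 were used, per the submitters' processing notes, and the annotation release is not given in the sources used here. Libraries were of the 3' type (Chromium, v3), per the labels' protocols. A UMI count of 3' ends carries no gene length, so levels are not ranked between genes. The members and lists were chosen with earlier results of these data known. The 2 Ddit3 entries were summed.

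Counts were summed per library and class or Mpo bin and given as CPM, with exact Poisson intervals for levels and exact conditional intervals for ratios, both at 95%. Cells were gated to the class with the highest mean z-score of log-normalized markers, at a score of at least 0.5 and a margin of 0.2. The minimum of 3 markers per cell for a class was set after seeing the data. Doublets were kept, because Scrublet's automatic threshold marked 2, 2 and 0 cells. Members were given in full at 1.5-fold between libraries, and in the Mpo contrast as the 5 largest called changes in each direction with Calr, Canx, Hspa5, Hsp90b1 and Xbp1. Of each other list the 2 genes of highest CPM could be named.

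Mpo and class contrasts used edgeR 4.0.16 (TMM, filterByExpr, quasi-likelihood, library as a block, two-sided, adjusted p under 0.05) in R 4.3.3, with DESeq2 1.42.0 as an alternative. The class contrasts were added after seeing the data. Standard errors (SE) were derived from the test, as the absolute log2 change divided by the square root of its F statistic. Code was tested on simulated counts. Python 3.11.15, numpy 2.4.6, scipy 1.17.1, pandas 2.3.3, scanpy 1.11.5 and matplotlib 3.10.9 were used. Gene positions and promoters refer to GRCm38.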

Additional observations from a re-analysis of the deposited data

Results flagged for a closer look

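In the heterozygous against wild-type comparison, the cytosolic heat shock sum lay on opposite sides of 0 in different classes, with counting intervals that excluded 0. The log2 ratio was 0.11 in dendritic cell-like cells, and -0.36 in granulocyte-monocyte progenitor-like, -0.14 in immature neutrophil-like and -0.19 in monocyte-like cells. The sum of the 4 degradation genes did the same, at 0.43 in mature neutrophil-like and -0.20 in monocyte-like cells. The wild-type library held 109 mature neutrophil-like and 106 dendritic cell-like cells. With 1 library per genotype the difference between classes was not tested.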

How the results depend on the processing

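Over all kept cells the ER and cytosolic sums kept their direction under every alternative run. The homozygous ER ratio was -0.12 with no cell filter, -0.11 with mitochondrial shares up to 25%, -0.16 without the top Scrublet scores, -0.16 in cells of at least 5000 UMIs and -0.041 with equal weight per cell. The heterozygous ER ratio was -0.49 at 25% and -0.42 without granule genes. The homozygous cytosolic ratio was 0.14 with no cell filter, 0.18 with equal weight and 0.038 without Hspa8. The heterozygous cytosolic ratio was -0.42 with no cell filter, -0.48 at 1000 UMIs and 5%, -0.43 at 25%, -0.45 from 5000 UMIs, -0.37 without granule genes, -0.39 with equal weight and -0.40 without Hspa8. The Mpo difference is the mean of the log2 ratios of the 3 libraries. At 50 against under 10 per 10000 it was 0.99 for the ER sum and 0.70 for the cytosolic sum. For the ER sum it was 0.72 at 10 against under 1 per 10000. For the cytosolic sum it was 0.47 at 25, 0.38 at 10 against 1 and 0.41 within progenitor-like cells. The value within progenitor-like cells used the cut of 50 and rests on 21, 10 and 8 Mpo-high cells. The cause of these shifts was not tested.

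Members higher in Mpo-high cells numbered 8 with no filter on low counts, 7 without the library block and 8 to 13 with a library left out. Members lower numbered 0 by DESeq2, 0 without the block, 2 at 25% mitochondrial share, 3 at an Mpo cut of 25, 4 at 10 against 1, and 0 to 2 with a library left out. Within progenitor-like cells 0 were higher without the block and 5 to 16 with a library left out. Over all genes edgeR called 866 higher and 1718 lower and DESeq2 748 and 955. An Mpo cut of 100 was not run, because over all kept cells it left 1 Mpo-high cell in the homozygous library and none in the others. The Mpo and class contrasts pair the groups within each library through the library block. Between genotypes, no paired analysis was possible because each has 1 library. Cell number limits the Mpo-high groups of 26, 12 and 9 cells, and depth limits Trib3.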
